A study of Homo sapiens with 6 samples.

Results

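The proteasome is the protease complex that degrades ubiquitin-tagged proteins, and its subunit genes were followed here in SUM159 breast cancer cells grown as oncospheres with or without a SCGB3A1 vector. Members were taken by name: every gene whose symbol consists of PSM, a letter from A to G and a number, and whose probe set carried that symbol alone. The rule gave 42 of 19775 measured genes, and 81 of 54613 probe sets. Where a gene had several probe sets, the one with the highest 6-array mean represented it. Of 48 symbols listed for the family, 6 had no such probe set: PSMA6 and PSME2 lay on probe sets annotated to several genes, and PSMC5, PSMD7, PSMD13 and PSMB11 were likewise not analysed here.

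Across these genes the arrays labelled SCGB3A1 and the control arrays were close. None of the 42 genes was called, where only 0.0183% of all probe sets were. The median log2 fold change was 0.018, against 0.011 over all genes. For 39 of the 42 the 95% interval of the change lay within 1.25-fold in either direction, as it did for 80.6% of all genes. The interferon-inducible subunits PSMB8, PSMB9 and PSMB10 read 0.03, 0.10 and 0.03 on the log2 scale, against 0.05, 0.09 and 0.09 for the constitutive subunits PSMB5, PSMB6 and PSMB7 that they replace. Without control replicate 2 the inducible genes read 0.04, 0.06 and 0.03 and the constitutive ones 0.0029, 0.03 and 0.03. The largest differences, in the alpha subunit PSMA1 and the assembly chaperone PSMG1, rested on 1 control array.

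SUM159 is an established human breast cancer line. The cells labelled SCGB3A1 carried the lentiviral vector pLVX-puro with human SCGB3A1, a small secreted protein of the secretoglobin family, and the control cells carried the empty vector (3 arrays each). Both lines had passed through 7 days of puromycin (2 µg/ml), were seeded at 12500 cells/ml on ultra-low attachment plates and were harvested after 5 days, and expression was read from 100 ng of total RNA on Affymetrix arrays of the human U133 Plus design. The replicates were labelled biological, but whether each was a separate transduction is not given in the sources used here, so the p-values measure the spread between these arrays. In bulk RNA, fewer cells of a type and less RNA per cell cannot be told apart.

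The core particle of the proteasome is a barrel of stacked rings, in which outer rings of alpha subunits gate the entry and inner rings of beta subunits hold the active sites. A regulatory particle of ATPases, scaffold proteins and a lid binds ubiquitinated proteins, removes the ubiquitin and unfolds them into the core. Interferon-gamma induces PSMB8, PSMB9 and PSMB10, which take the place of the constitutive active subunits in newly built cores, the immunoproteasome, and change the peptides offered to MHC class I molecules. When proteasome activity falls short, the transcription factor NFE2L1 raises subunit genes together through antioxidant response elements in their promoters.

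Promoter windows are shown for the catalytic genes, inducible beside constitutive, since this is the comparison made below. RefSeq windows (GRCh38.p14) of 300 bases, 250 before and 50 after a start, were found for 36 of the 42 genes, and none was listed for PSMA7, PSMB1, PSMB6, PSMB7, PSMD4 and PSMG3. In the 4 windows below, capitals mark a match, on either strand, to the core of the interferon-stimulated response element (GAAA, any 2 bases, GAAA) in PSMB8 and PSMB10 and to the core of the antioxidant response element (TGACNNNGC) in PSMB9. The PSMB5 window held neither. The windows lie at chr6:32843998-32844297 on the minus strand (PSMB8, the downstream of its starts), chr6:32853942-32854241 on the plus strand (PSMB9), chr16:67936801-67937100 on the minus strand (PSMB10) and chr14:23034851-23035150 on the minus strand (PSMB5, the downstream of its starts).
PSMB8: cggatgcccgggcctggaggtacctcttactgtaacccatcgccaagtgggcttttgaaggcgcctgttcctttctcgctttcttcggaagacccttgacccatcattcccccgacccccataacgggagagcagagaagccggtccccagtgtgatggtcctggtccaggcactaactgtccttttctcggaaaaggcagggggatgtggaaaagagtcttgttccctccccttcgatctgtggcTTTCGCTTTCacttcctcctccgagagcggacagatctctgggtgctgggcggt
PSMB9: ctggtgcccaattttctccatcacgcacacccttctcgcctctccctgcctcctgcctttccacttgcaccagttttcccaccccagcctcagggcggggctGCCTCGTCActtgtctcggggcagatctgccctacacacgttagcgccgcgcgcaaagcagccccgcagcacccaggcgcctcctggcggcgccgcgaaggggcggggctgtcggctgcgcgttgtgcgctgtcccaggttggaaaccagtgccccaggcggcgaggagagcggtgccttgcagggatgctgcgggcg
PSMB10: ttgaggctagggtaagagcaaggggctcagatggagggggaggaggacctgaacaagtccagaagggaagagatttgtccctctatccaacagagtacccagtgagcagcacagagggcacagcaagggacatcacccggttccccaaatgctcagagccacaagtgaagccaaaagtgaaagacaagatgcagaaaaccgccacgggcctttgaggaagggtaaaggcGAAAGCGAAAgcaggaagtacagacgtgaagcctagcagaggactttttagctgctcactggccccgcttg
PSMB5: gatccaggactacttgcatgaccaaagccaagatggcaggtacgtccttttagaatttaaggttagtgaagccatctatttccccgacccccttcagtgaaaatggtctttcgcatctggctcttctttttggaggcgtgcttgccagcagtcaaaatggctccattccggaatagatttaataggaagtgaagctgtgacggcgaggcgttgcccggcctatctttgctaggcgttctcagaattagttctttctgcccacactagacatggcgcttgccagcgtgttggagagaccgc
The upstream windows of PSMB8 and PSMB5 held neither core. Over the family, the antioxidant response element core was found in 13 of 36 genes (36.1%), against 16.1% of 27305 genes with a window. The interferon-stimulated core was found in 6 of 36 (16.7%), against 4.38% of all genes, namely in PSMA4, PSMB4, PSMB8, PSMB10, PSME1 and PSMG4. The motifs overlapped in 0 windows. A match describes these letters only and is not a measured binding site.

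Among the 6 arrays, control replicate 2 stood apart, scoring 30.7 on the leading principal component (38.0% of the variance) where the other 5 arrays lay at -16.1 to 6.13. SCGB3A1 itself read 6.60, 6.92 and 6.71 on the log2 scale in the arrays labelled SCGB3A1, against 6.80, 6.89 and 7.05 in control, and the groups overlapped (-0.17 ± 0.10 SE; limma, adjusted p = 0.835). Leaving out SCGB3A1 replicate 1 gave -0.10 and leaving out SCGB3A1 replicate 2 gave -0.26, the extremes over the 6 arrays. Its only probe set does not check the labels, since whether it covers the vector's insert is unknown here, and directions hold for the arrays as labelled. The study reports a qPCR check of the introduced genes in its cancer cells, SUM159 among them, after puromycin selection. Those qPCR values were not part of the data read here. The keratins KRT8 and KRT18 and the mesenchymal genes VIM and FN1 were well expressed, whereas the epithelial markers EPCAM, CDH1 and KRT19 lay between 6.07 and 6.59 near the low end of the table (5.66), and the 8 blood and endothelial markers measured read 5.91 to 8.39. The basal keratins KRT5 and KRT14 were each 0.56 higher in the arrays labelled SCGB3A1, with no overlap between groups (limma, adjusted p = 0.166 and 0.290). KRT5 also passed the fold and p thresholds of the study's signature, as did 0.0311% of all probe sets. The other epithelial markers lay near 0, at 0.04 for KRT8, 0.08 for KRT18, 0.0065 for CDH1, -0.01 for EPCAM and -0.06 for KRT19. The 5 mesenchymal markers were all negative (median -0.090), and ZEB1 among them read -0.25 with no overlap (limma, adjusted p = 0.717). All 4 endothelial markers were negative too (median -0.037). Over the whole marker list 7 were positive and 14 negative, where 54.3% of all genes were positive. Of the 21 markers measured, 3 were higher and 1 lower with no overlap, where 7.09% and 5.24% of all genes were. The part of these markers in the values of the proteasome genes was not tested.

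With limma, which moderates each probe set's variance across all probe sets, 0 of the 42 genes passed adjusted p 0.05, where 0.0183% of all probe sets did, and 0 passed the fold and p thresholds of the study's signature, where 0.0311% did. Nor did any reach an unadjusted p of 0.05, which 6.82% of genes did. Without control replicate 1, 1 of 42 did so (PSMA1), and without control replicate 3 it was 1 of 42 (PSMG4). For these 2 fits the share of all genes is not given, so the counts show no change. The smallest p was 0.109, for PSMG4 (limma, adjusted p = 0.836). The log2 fold changes ran from -0.20 for PSMA1 to 0.10 for PSMA5, with 25 positive and 17 negative. This is 59.5% positive, against 54.3% of all genes, and the median of 0.018 compares with 0.011 over all genes. Without SCGB3A1 replicate 1 the median was -0.0014 and 20 of 42 were positive, where 52.7% of all genes were. Without control replicate 2 it was -0.0043 and 19 of 42 were positive, where 53.0% of all genes were.

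The spread between arrays was smaller for these genes than over all genes, and their intervals were somewhat narrower. The median SD was 0.050 in the arrays labelled SCGB3A1 and 0.057 in control, against 0.085 and 0.091 over all genes. After the moderation of variances by limma the median SE differed less, at 0.074 against 0.081 over all genes. A 95% interval within 1.25-fold, or 0.322 on the log2 scale, was found for 92.9% of the members and 80.6% of all genes. The exceptions were PSMA1, PSMG1 and PSMG4, and without control replicate 2 all 42 had such an interval, whereas without control replicate 1 the count was 35. The members were not matched with other genes for level in this comparison.

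**Figure D1:**
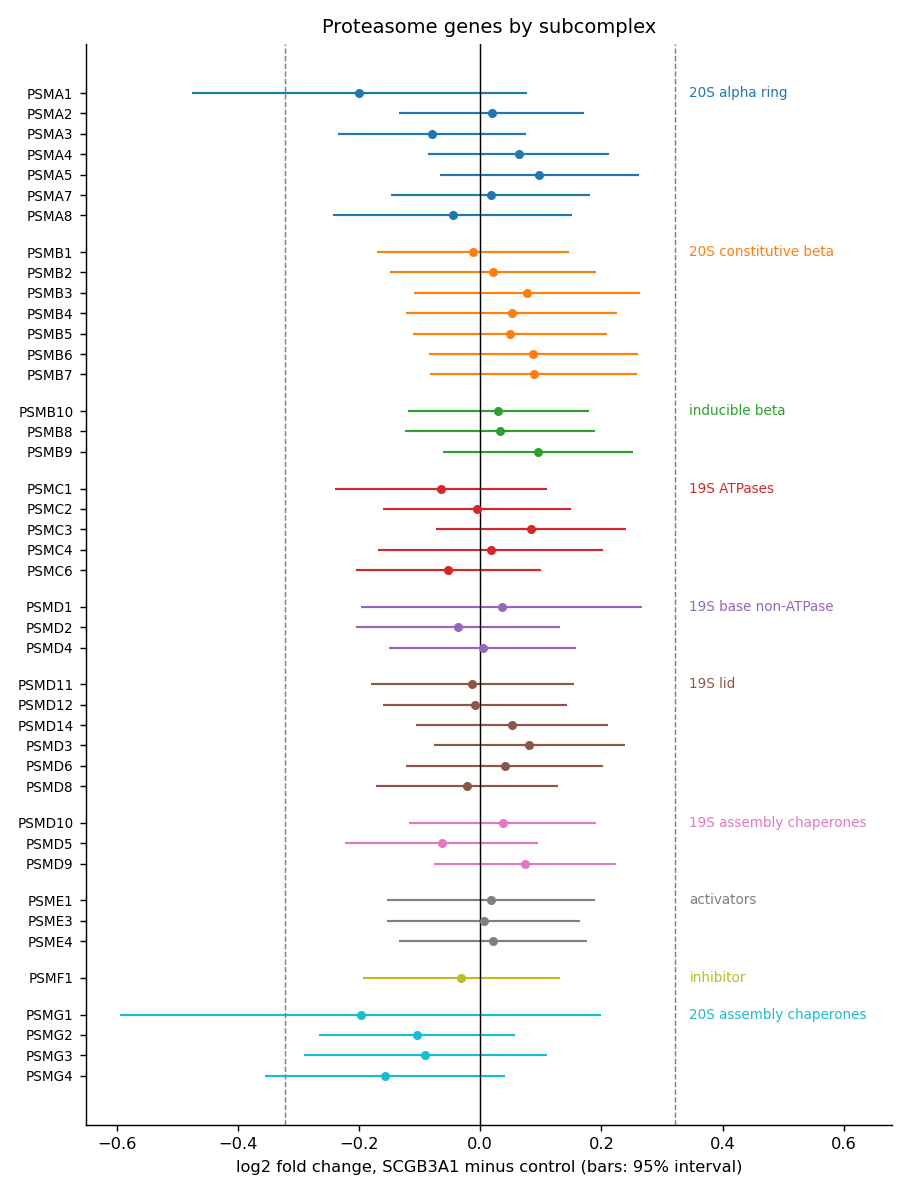
Log2 fold change, SCGB3A1 minus control, of each of the 42 proteasome genes (points, horizontal axis) with its 95% interval from limma (bars), ordered by subcomplex, with dashed lines at 1.25-fold in either direction. Every interval crosses 0, and those of PSMA1, PSMG1 and PSMG4 cross the left dashed line.

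**Figure D2:**
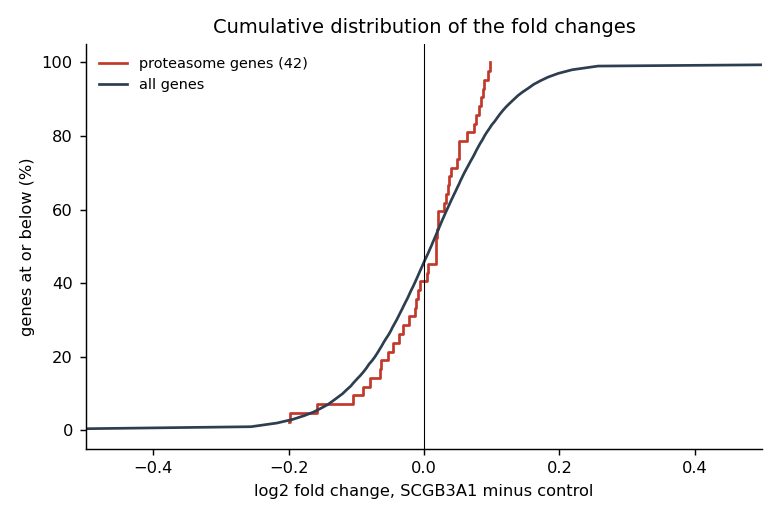
Percentage of genes at or below each log2 fold change, SCGB3A1 minus control (horizontal axis), for the 42 proteasome genes (red steps) and for all 19775 genes (dark line, drawn through its percentiles). The interquartile range is -0.035 to 0.051 for the proteasome genes, against -0.056 to 0.074 for all genes.

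The groups did not overlap for 4 higher genes, PSMA4, PSMB9, PSMC3 and PSMD9, and for 1 lower gene, PSMG2, that is 4 and 1 of 42 where 7.09% and 5.24% of all genes did so. PSMA4, an alpha subunit that was named after its values were seen, read 11.64, 11.61 and 11.61 in the arrays labelled SCGB3A1, against 11.53, 11.59 and 11.55 in control (log2 fold change 0.06 ± 0.07 SE). PSMC3, an ATPase of the regulatory particle, read 11.11, 11.07 and 11.05 in the arrays labelled SCGB3A1 and 11.03, 10.92 and 11.04 in control (0.08 ± 0.07). In both genes the nearest arrays of the groups differed by less than 0.02, and neither passed (limma, adjusted p = 0.915 and 0.889). PSMD9, a chaperone of the regulatory particle also named after its values were seen, differed by 0.07 ± 0.07. Without control replicate 2, 8 genes were lower with no overlap, where 10.2% of all genes were, and 5 were higher, where 12.4% were.

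The active sites were compared first between the inducible and the constitutive subunits. PSMB8, the inducible chymotrypsin-like subunit, read 10.50, 10.60 and 10.45 in the arrays labelled SCGB3A1, against 10.50, 10.50 and 10.46 in control (0.03, 95% interval -0.12 to 0.19). Its constitutive counterpart PSMB5 read 10.96, 11.00 and 11.04 in the arrays labelled SCGB3A1, against 11.01, 10.86 and 10.99 in control (0.05, interval -0.11 to 0.21). For both genes the groups overlapped, and the difference between the pair changed by -0.016 (exact two-sided permutation p = 0.9, n = 3 each).

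PSMB9, the inducible subunit at the caspase-like site, read 10.87, 10.91 and 10.86 in the arrays labelled SCGB3A1, against 10.85, 10.71 and 10.79 in control (0.10, interval -0.06 to 0.25; limma, adjusted p = 0.875). PSMB6, the constitutive subunit at that site, read 11.03, 11.07 and 10.92 in the arrays labelled SCGB3A1, against 11.01, 10.81 and 10.94 in control (0.09, interval -0.09 to 0.26). The lowest value of each belonged to control replicate 2. The difference between them changed by 0.0076 (exact two-sided permutation p = 0.9, n = 3 each).

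PSMB10, the inducible trypsin-like subunit, read 9.85, 9.88 and 9.93 in the arrays labelled SCGB3A1, against 9.86, 9.86 and 9.84 in control (0.03, interval -0.12 to 0.18). PSMB7, which it replaces, read 11.56, 11.59 and 11.61 in the arrays labelled SCGB3A1, against 11.50, 11.38 and 11.62 in control (0.09, interval -0.08 to 0.26). PSMB7 thus varied more among its controls than PSMB10 did, and the difference changed by -0.058 (exact two-sided permutation p = 0.6, n = 3 each). Adjusted over the 3 pairs, all p-values were 0.9, and 3 against 3 arrays cannot go below 0.1. Between single arrays of the groups, the change in these differences ran from -0.23 to 0.13 for PSMB8 and PSMB5, from -0.06 to 0.09 for PSMB9 and PSMB6, and from -0.20 to 0.09 for PSMB10 and PSMB7.

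**Figure D3:**
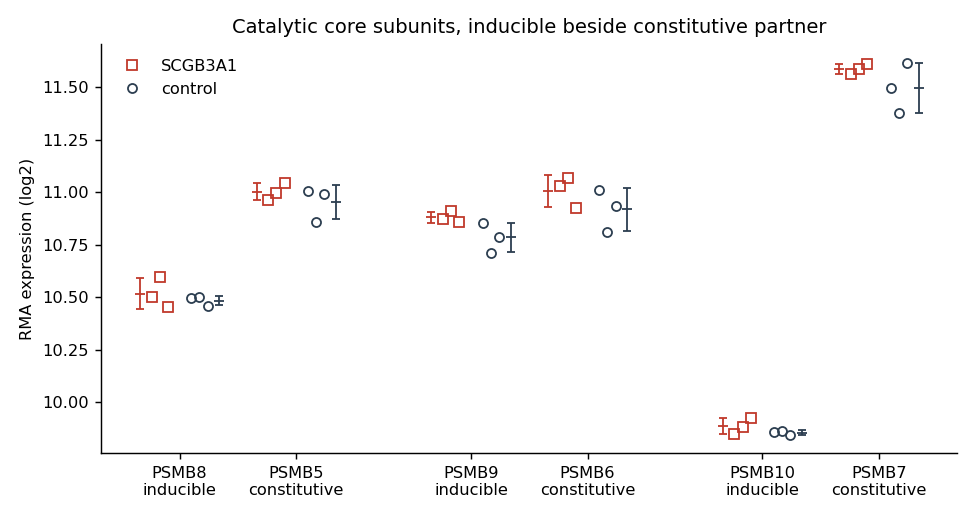
RMA expression on the log2 scale (vertical axis, which does not start at 0) of the 3 inducible catalytic subunits, each beside the constitutive subunit it replaces, with 1 symbol per array, red squares for SCGB3A1 and dark circles for control. Bars are the group mean and SD (n = 3), levels of different genes come from different probe sets and cannot be compared, and PSMB9 is the only one of the 6 whose groups do not overlap.

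The remaining beta subunits are structural parts of the inner rings. Over the 7 constitutive beta genes, 6 were positive and 1 negative, with a median of 0.052, and PSMB1, the negative one, read -0.01. PSMB3 read 11.71, 11.72 and 11.66 in the arrays labelled SCGB3A1, against 11.77, 11.46 and 11.63 in control, where replicate 2 was lowest and replicate 1 highest of all 6 arrays. Control replicate 2 was the lowest array for 6 of the 7 genes, and without it their median was -0.0033. The 3 inducible genes had a median of 0.033, and 0.024 to 0.064 with 1 array left out.

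The alpha ring gave a median of 0.018 over 7 genes, 4 positive and 3 negative. The sign of this median was not stable: it was -0.015 without control replicate 2, -0.016 without probe sets ending in _x_at or _s_at, and -0.043 with the mean of each gene's probe sets. PSMA5 had the highest fold change of the family and read 11.05, 10.95 and 10.90 in the arrays labelled SCGB3A1, against 10.93, 10.79 and 10.89 in control (0.10 ± 0.08 SE; limma, adjusted p = 0.879). PSMA1 had the lowest and read 11.44, 11.37 and 11.49 in the arrays labelled SCGB3A1, against 11.43, 12.00 and 11.46 in control (-0.20 ± 0.13; adjusted p = 0.851). The control value of 12.00 is that of replicate 2, and without it PSMA1 read -0.015. That value also entered the mean by which this probe set was chosen to represent PSMA1. With that array left out, another probe set of the gene, which read -0.10 over all arrays, had the highest mean by a narrow margin. PSMA8, an alpha subunit of the testis, lay between 6.01 and 6.29 in all arrays, near the low end of the table, so its value of -0.05 says little.

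In the regulatory particle the genes lay on both sides of 0. The 5 ATPases measured, which form the ring that unfolds substrates, had a median of -0.0058, from -0.06 for PSMC1 to 0.08 for PSMC3. The base genes gave 0.04 for PSMD1 and -0.04 for PSMD2, the scaffold proteins, and 0.0046 for PSMD4, a ubiquitin receptor. The 6 lid genes had a median of 0.016 (0.052 without probe sets ending in _x_at or _s_at), with 0.05 for PSMD14, the deubiquitinase that releases ubiquitin chains, and 0.08 for PSMD3. The chaperones of this particle, PSMD5, PSMD9 and PSMD10, gave -0.06, 0.07 and 0.04. Together the 28 constitutive subunits of core and regulatory particle had a median of 0.018, with 17 positive and 11 negative, and all but PSMA1 had an interval within 1.25-fold.

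The alternative caps of the core differed as little. PSME1, which forms an interferon-inducible cap with PSME2, read 11.70, 11.64 and 11.48 in the arrays labelled SCGB3A1, against 11.64, 11.54 and 11.58 in control (0.02, interval -0.15 to 0.19; limma, adjusted p = 0.980). PSME3, the nuclear member, read 0.0056 and PSME4, a large activator, 0.02. PSMF1, named as an inhibitor of the core, read 9.88, 9.87 and 9.83 in the arrays labelled SCGB3A1, against 9.98, 9.79 and 9.90 in control (-0.03 ± 0.07 SE).

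The chaperones that assemble the core were the group with the lowest median, -0.13, and all 4 were negative. PSMG1 read 9.84, 9.77 and 10.18 in the arrays labelled SCGB3A1, against 9.88, 10.67 and 9.84 in control (-0.20 ± 0.18 SE; limma, adjusted p = 0.899). PSMG2, its partner in a dimer, read 11.05, 10.91 and 11.05 in the arrays labelled SCGB3A1, against 11.16, 11.07 and 11.10 in control (-0.10 ± 0.07; adjusted p = 0.866). PSMG2 did not overlap between groups, whereas PSMG1 was high in control replicate 2 alone. PSMG4 read 9.50, 9.42 and 9.48 in the arrays labelled SCGB3A1, against 9.58, 9.83 and 9.47 in control (-0.16 ± 0.09; adjusted p = 0.836), and PSMG3, its partner, differed by -0.09 ± 0.09. In PSMG1, PSMG3 and PSMG4 control replicate 2 was the highest of the 6 arrays. Without it the median of the group was -0.029, and the genes read 0.07 for PSMG1, -0.13 for PSMG2, -0.00064 for PSMG3 and -0.06 for PSMG4.

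**Figure D4:**
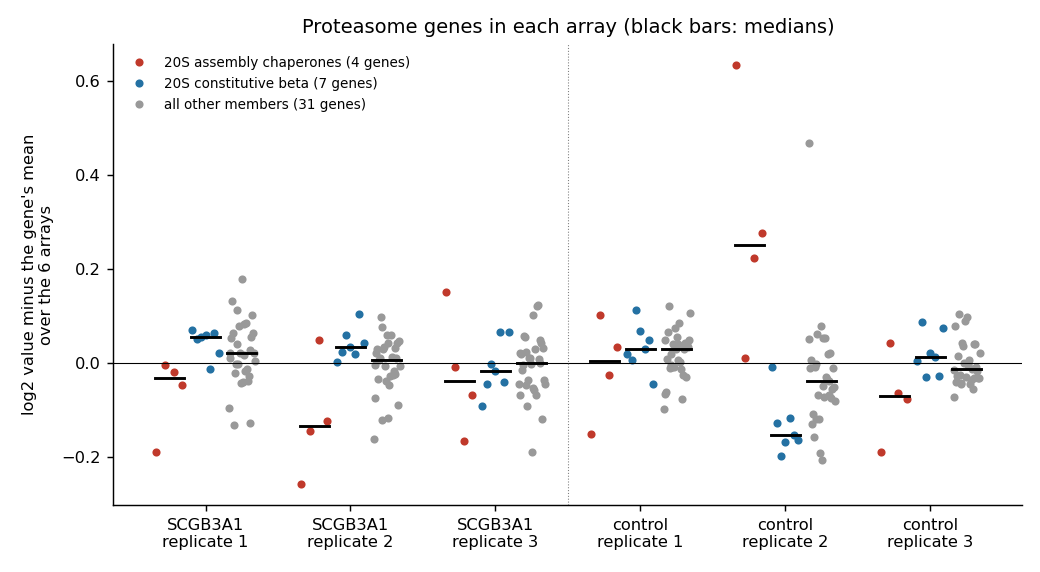
Log2 value of each proteasome gene minus its mean over the 6 arrays (vertical axis), by array (horizontal axis), for the 4 core assembly chaperones (red), the 7 constitutive beta subunits (blue) and the other 31 genes (grey), with black bars for the medians. In control replicate 2 the chaperones have a median of 0.25 and the beta subunits one of -0.15.

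Control replicate 2 was often the extreme array of the family. It was the lowest of the 6 arrays for 20 of the 42 genes (47.6%, against 26.7% of all genes) and the highest for 7 (16.7%, against 21.9%). The median deviation of the members from their own means was -0.043 in that array. In the arrays labelled SCGB3A1 it was 0.022, 0.011 and -0.0025, and in control replicates 1 and 3 it was 0.030 and -0.010. The part of this array in the group differences was not tested beyond leaving it out.

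Probe sets of the same gene did not always move together. Of the 42 genes, 22 had several probe sets, and in 14 of these the signs differed. Over all 81 probe sets, 2 had an unadjusted p under 0.05, where 6.2% of all probe sets did, and both were lower. One was a second probe set of PSMF1 (201053_s_at), which read 9.67, 9.69 and 9.69 in the arrays labelled SCGB3A1, against 9.86, 9.82 and 9.93 in control (-0.19 ± 0.07 SE; limma, adjusted p = 0.776). Its groups were apart, while those of the PSMF1 probe set given above overlapped.

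The other was a dim probe set of the alpha subunit PSMA3 (232648_at), at 6.57, 6.43 and 6.58 in the arrays labelled SCGB3A1, against 6.65, 6.93 and 6.85 in control (-0.28 ± 0.09 SE; limma, adjusted p = 0.717). The bright probe set of PSMA3 read 11.52, 11.43 and 11.43 in the arrays labelled SCGB3A1, against 11.55, 11.49 and 11.58 in control (-0.08 ± 0.07), and the remaining one read 0.13. The 3 probe sets of PSMA1 read -0.20, -0.10 and 0.17, and the value of 12.00 in control replicate 2 was found in the first alone, where the others read 11.51 and 11.41 in that array. The identifiers of the first and second PSMA1 probe sets end in _x_at, the maker's mark for probes that may bind other transcripts. PSMA7 and PSME3 were also represented by such a probe set.

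**Figure D5:**
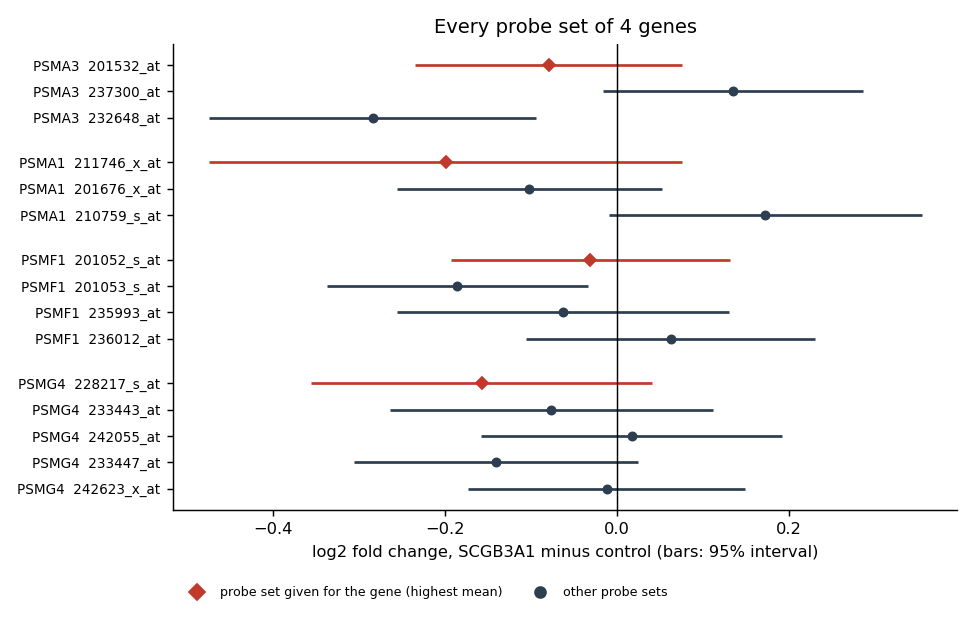
Log2 fold change, SCGB3A1 minus control (horizontal axis), with 95% intervals (bars), for every probe set of PSMA3, PSMA1, PSMF1 and PSMG4, with red diamonds for the probe set that represents the gene and dark circles for the others. Only the intervals of 232648_at in PSMA3 and 201053_s_at in PSMF1 leave out 0.

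Genes that work with the proteasome but do not carry its symbols were read from a list of 28, of which 23 were measured. Of these 0 passed adjusted p 0.05, where 0.0183% of all probe sets did. The median was 0.029, against 0.011 over all genes, with 15 positive and 8 negative, where 54.3% of all genes were positive. NFE2L1, the activator of subunit genes, read 9.90, 9.84 and 9.96 in the arrays labelled SCGB3A1, against 9.91, 9.91 and 9.88 in control (0.0047, interval -0.15 to 0.16). POMP, the maturation factor of the core, differed by -0.10 and the regulatory subunits SEM1 and ADRM1 by 0.15 and 0.01. An unadjusted p under 0.05 was found for 1 of the 23, where 6.82% of all genes had one, so this share is not above that of all genes. It belonged to UBA1, the main ubiquitin-activating enzyme. UBA1 read 10.83, 10.87 and 10.84 in the arrays labelled SCGB3A1, against 10.65, 10.71 and 10.63 in control (0.18 ± 0.07 SE; limma, adjusted p = 0.776). These genes were named after their values were seen.

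The list of antigen processing and interferon genes, the pathway in which the immunoproteasome works, held 33 genes, of which 30 were measured. Their median was 0.047, against 0.011 over all genes, with 17 positive and 13 negative, where 54.3% of all genes were positive. Past adjusted p 0.05 were 0 of the 30, where 0.0183% of all probe sets were. Its 15 antigen processing genes had a median of 0.058, with 10 positive and 5 negative. Its 15 interferon genes had a median of -0.038, with 7 positive and 8 negative. An unadjusted p under 0.05 was found for 5 of the 30, where 6.82% of all genes had one. HLA-F, a non-classical MHC class I molecule, read 12.20, 12.18 and 12.24 in the arrays labelled SCGB3A1, against 12.05, 11.96 and 11.95 in control (0.21 ± 0.07 SE; limma, adjusted p = 0.737). HLA-G (0.20) and IRF9 (0.17), a transcription factor of the interferon response, were the others above 0, and MHC genes resemble each other, so probes may read several of them. Below 0 were IFIT3, an interferon-induced antiviral protein (-0.32; adjusted p = 0.717), and SOCS1, an inhibitor of cytokine signalling (-0.25; adjusted p = 0.787). TAP1, the peptide transporter whose gene starts beside PSMB9, read 9.71, 9.76 and 9.64 in the arrays labelled SCGB3A1, against 9.71, 9.49 and 9.55 in control (0.12, interval -0.05 to 0.29), and IRF1, which drives both, read 0.0088. These genes, too, were named after their values were seen.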

How the data were processed

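Expression was measured in 6 arrays, 3 of cells labelled SCGB3A1 and 3 of cells with the empty vector. Scanner files were normalized by the authors with robust multiarray average (RMA), which left deposited log2 values of the same distribution in every array (sorted arrays differed by at most 0.030), so a change in total RNA per cell cannot be seen. The table gives no detection calls. Of 54675 probe sets, 62 manufacturer controls were set aside. Genes were named from the platform annotation, in which 41091 tested probe sets had 1 symbol, 1801 several and 11721 none. Updating through a RefSeq table changed 0 symbols and 54 were not held. No per-sample column was left unused.

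Groups were compared with limma 3.58.1 in R 4.3.3 (lmFit and eBayes, two-sided), and p-values were adjusted by Benjamini-Hochberg over all 54613 probe sets, after the empirical Bayes test of the study. Fold changes are SCGB3A1 minus control. The fit was tested on simulated data. Genes were named by a rule: the catalytic subunits, PSME1, the 5 lowest and 5 highest fold changes, any unadjusted p under 0.05, and the 3 genes whose probe sets differed most. The signature thresholds asked for a change of more than 0.5 (log2), an unadjusted p below 0.05 and an adjusted p below 0.25. Members, lists and rules were chosen with earlier results of these data known. Alternatives were other scaling, a variance trend, array weights, a replicate block, filters on dim and cross-hybridizing probe sets, other ways to represent a gene, and each array left out. The number of arrays limits the precision.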

Additional observations from a re-analysis of the deposited data

How the results depend on the processing

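The count of proteasome genes past adjusted p 0.05 was 0 in every alternative run, and 0 at the signature thresholds. At an unadjusted p under 0.05 it was 0 with all arrays and 1 without control replicate 1 (PSMA1) or 3 (PSMG4), fits for which the share of all genes is not given. With the replicate number as a block the count was again 0 and the median log2 fold change 0.018. Between same-numbered arrays, the deviations of the probe sets from their group means correlated at 0.15, -0.14 and -0.09. These values cannot settle whether the numbers pair the arrays. The median was 0.018 to 0.041 under the other settings and -0.0043 to 0.031 with 1 array left out. With 1 array left out, signs turned for PSMB8 (-0.0078 to 0.064), PSME1 (-0.029 to 0.082), PSMG1 (-0.34 to 0.071) and PSMF1 (-0.079 to 0.014), and for the paired differences PSMB8 minus PSMB5 (-0.059 to 0.037), PSMB9 minus PSMB6 (-0.022 to 0.026) and PSMB10 minus PSMB7 (-0.12 to 0.0047). With array weights PSMA1 read -0.11 and PSMG1 -0.09, and with the mean of its probe sets PSMA1 read -0.04. The cause was not tested. Leaving out each array for the counts of intervals within 1.25-fold (35 to 42 of 42, against 65.9% to 80.1% of all genes), positive genes (19 to 28) and non-overlapping genes (4 to 7 higher, against 11.0% to 16.7%, and 1 to 8 lower, against 8.51% to 11.9%) was chosen after seeing the data. Dim probe sets such as those of PSMA8 are limited by their signal over background.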
